A study of Mus musculus with 12 samples.

Results

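The genes described here encode the subunits of integrins and laminins. They were taken from the probe-to-gene table of the array by symbol: every numbered Itga gene including Itga2b, the numbered Itgb genes without Itgb3, the numbered Lama, Lamb and Lamc genes, and Itgae, Itgal, Itgav and Itgax. That gave 33 genes of the 19937 measured, namely 16 integrin alpha, 7 integrin beta and 10 laminin genes, each read by 1 probe set. The samples were 12 one-colour Affymetrix mouse arrays in 4 groups of 3. All mice that gave muscle or tumour cells were C57BL/6 and carried Myf5Cre, an R26-LSL-rtTA allele and the Col1a-Teto-hYAP1 S127A transgene, so that doxycycline switches on this mutant human YAP1 in cells whose ancestors expressed Myf5. The control group (CTL) was whole hindlimb muscle from mice of this genotype that were never induced. For the tumours, donors were given doxycycline for 4 weeks, and interstitial cells from their hindlimb muscles were then grafted into the gastrocnemius of NOD/SCID mice kept on the drug. The tumours were collected on doxycycline (TUM, day 0) or after 3 days (OFF3) or 6 days (OFF6) without it. A tumour array can therefore hold RNA of donor cells and of host muscle, vessel and blood cells. The labels give no age and do not say whether the arrays of a group come from different mice, so every p-value below reflects the spread among arrays, which may be technical.

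An integrin is a receptor made of 1 alpha and 1 beta chain that spans the cell membrane and joins the matrix outside to the actin skeleton inside. Laminins are cross-shaped proteins of 1 alpha, 1 beta and 1 gamma chain and form the main network of basement membranes, including the sheath around every muscle fibre. In adult muscle the fibre binds the laminin that holds Lama2, Lamb1 or Lamb2, and Lamc1 through the integrin of Itga7 and Itgb1 and through dystroglycan. YAP1 is a transcriptional co-activator that binds DNA through TEAD factors, and its activity follows cell adhesion and matrix stiffness.

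Values are log2 of the deposited array intensity. Differences between groups are in log2 units with ± for the standard error, so 1 unit is a 2-fold change, and p-values are those of limma, adjusted by Benjamini and Hochberg over all 19937 genes. A gene was called changed at an adjusted p under 0.05. Array medians lay between 86.74 and 93.05 in linear intensity. Skeletal muscle markers (Ckm, Acta1, Myh4, Tnnt3, Pvalb) were present in every group, with a summed intensity of 46787 to 47571 in CTL, 14145 to 15591 in TUM, 25518 to 32649 in OFF3 and 23157 to 24580 in OFF6. OFF6 replicate 2 stood apart from its group: across all genes its mean correlation was 0.9911 with the other OFF6 arrays and 0.9952 with the OFF3 arrays. Of the 33 integrin and laminin genes, 22 read closer to the OFF3 mean than to the mean of OFF6 replicates 1 and 3 on that array. Day 6 values are therefore also given without it where a call changes or a called value moves by over 1.5 times. The median difference over all genes was -0.15 for TUM minus CTL, and centring each array on its median moved it to -0.29. Since these are bulk samples, fewer cells of a type and less RNA per cell cannot be told apart in any value below.

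The integrin and laminin genes differed widely between tumour and muscle and again after doxycycline removal. In day 0 tumours compared with control muscle, 18 of the 33 were higher and 11 lower, where 30.3% of all genes were called higher and 45.9% lower. At 3 days off doxycycline 18 rose and 5 fell from the day 0 level, where 13.4% of all genes rose and 16.0% fell. At 6 days 15 rose and 5 fell, where 14.9% and 16.6% of all genes did. Without OFF6 replicate 2 the day 6 counts were 16 and 8, and the shares of all genes in that fit are not given here. The median difference of the 33 genes was 0.29 for TUM minus CTL, 0.24 for OFF3 minus TUM and 0.19 for OFF6 minus TUM, and over all genes it was -0.15, 0.02 and 0.05. Differences of at least 1 were called for 7 of the 33 genes up and 3 down in TUM minus CTL, 3 up and 2 down in OFF3 minus TUM, and 2 up and 2 down in OFF6 minus TUM, where 22.3%, 3.81% and 4.47% of all genes passed this in either direction. The arrays of the groups did not overlap for 31, 26 and 25 of the 33 genes in these comparisons, and for 82.7%, 44.8% and 48.5% of all genes. The 3 comparisons share the TUM arrays, so each is described by its own values.

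**Figure D1:**
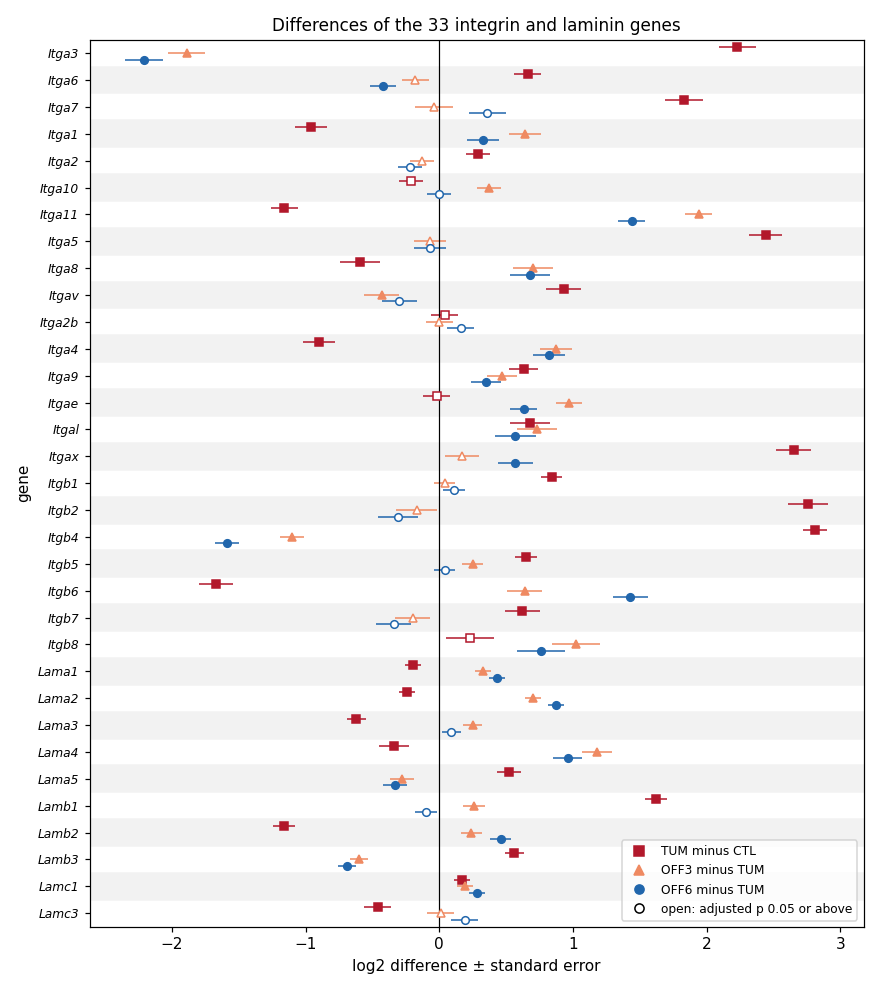
Log2 differences (x axis, ± standard error) of the 33 genes (y axis) for TUM minus CTL (squares), OFF3 minus TUM (triangles) and OFF6 minus TUM (circles), where filled symbols passed an adjusted p of 0.05. Itga3 and Itgb4 lie far right for TUM minus CTL (2.23 and 2.81) and left for OFF6 minus TUM (-2.21 and -1.59), and Itga11 and Itgb6 the other way round.

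Upstream DNA of genes that changed at least 2-fold after doxycycline removal is shown next, because YAP1 acts on DNA through a partner with a short recognition sequence. RefSeq promoter windows (build GRCm38.p6) were held for 22 of the 33 genes, in 25 windows, and the 250 bases before each start were searched on both strands. The sequences searched were GGAATG, the core bound by TEAD factors, CAGCTG and CAGGTG, E-boxes bound by the muscle factor MyoD, and TGANTCA, bound by AP-1. No stretch can match more than 1 of these in full. Of the 22 genes, those with such a change at day 3 or day 6 were Itga3, which fell, and Itga11, Itgb6 and Itgb8, which rose, and they are given below with Itgb1, the common partner chain, for comparison. Each reads 5′ to 3′ on the gene's strand, ends before the annotated gene, and has matches in capitals. For Itga3 that leaves 120 of the 250 bases searched.
Itga3 (chr11:95076845-95076964, minus strand): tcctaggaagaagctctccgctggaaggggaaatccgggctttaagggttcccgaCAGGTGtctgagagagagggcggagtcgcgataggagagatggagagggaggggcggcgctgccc
Itga11 (chr9:62677605-62677854, plus strand): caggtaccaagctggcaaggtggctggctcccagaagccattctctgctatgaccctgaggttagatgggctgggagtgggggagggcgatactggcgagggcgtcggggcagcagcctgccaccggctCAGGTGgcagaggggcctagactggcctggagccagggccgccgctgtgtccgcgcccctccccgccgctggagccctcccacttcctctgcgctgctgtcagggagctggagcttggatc
Itgb6 (chr2:60722604-60722853, minus strand): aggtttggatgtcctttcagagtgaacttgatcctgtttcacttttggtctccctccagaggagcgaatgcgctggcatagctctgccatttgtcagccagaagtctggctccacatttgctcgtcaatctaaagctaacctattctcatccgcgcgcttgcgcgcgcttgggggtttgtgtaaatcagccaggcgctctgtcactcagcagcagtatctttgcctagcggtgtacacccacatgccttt
Itgb8 (chr12:119238277-119238526, minus strand): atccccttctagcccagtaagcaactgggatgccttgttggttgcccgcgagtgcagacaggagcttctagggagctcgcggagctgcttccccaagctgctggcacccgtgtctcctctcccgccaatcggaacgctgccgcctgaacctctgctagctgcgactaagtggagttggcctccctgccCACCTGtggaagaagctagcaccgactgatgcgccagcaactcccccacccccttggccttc
Itgb1 (chr8:128685404-128685653, plus strand): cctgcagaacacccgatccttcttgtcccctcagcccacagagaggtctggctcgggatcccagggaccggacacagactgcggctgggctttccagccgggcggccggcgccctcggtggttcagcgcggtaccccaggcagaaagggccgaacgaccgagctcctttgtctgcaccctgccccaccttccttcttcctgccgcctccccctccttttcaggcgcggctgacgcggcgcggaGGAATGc
Itga3, Itga11 and Itgb8 each show the CAGGTG E-box (written CACCTG in Itgb8, the other strand), Itgb1 shows GGAATG next to its start, and Itgb6 shows no match in these bases, though the window of its second annotated start holds CAGGTG.

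Over the 25 windows of the family, GGAATG was present in 3 (12%; genes Lamb3, Itga10 and Itgb1), where 12.6% of all 32851 windows of the same length hold it. CAGCTG was present in 6 (24%, against 13.0% of all windows) and CAGGTG in 8 (32.0%, against 17.2%). TGANTCA was found in 1, that of Itgax (4.0%, against 6.75%). CAGGTG therefore occurs upstream of the falling Itga3 as well as the rising Itga11 and Itgb8. These are matches of letters, with no binding measured.

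Among the laminin-binding alpha chains, Itga3 was high in the day 0 tumours and back at the level of control muscle by day 6. Itga3 pairs with the beta chain of Itgb1 and is best known from epithelia. It read 7.64, 7.65 and 7.45 in the CTL arrays, 9.71, 9.98 and 9.74 in TUM, 7.99, 8.19 and 7.56 in OFF3 and 7.58, 7.75 and 7.45 in OFF6. All TUM arrays lay above every other array, and the OFF6 and CTL arrays overlapped. The difference was 2.23 ± 0.14 for TUM minus CTL (4.69-fold, adjusted p = 1.23e-08), -1.89 ± 0.14 for OFF3 minus TUM (3.72-fold lower, adjusted p = 8.58e-07) and -2.21 ± 0.14 for OFF6 minus TUM (4.64-fold lower, adjusted p = 2.03e-07). OFF6 differed from CTL by 0.01 ± 0.14, with a 95% interval of -0.29 to 0.32.

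Itga7, the main integrin alpha chain of muscle fibres and myoblasts, followed another course. It read 9.12, 9.29 and 9.37 in CTL, 11.04, 11.12 and 11.10 in TUM, 11.13, 11.18 and 10.84 in OFF3 and 11.67, 11.07 and 11.62 in OFF6. Every tumour array, on or off doxycycline, lay above the control muscle. TUM exceeded CTL by 1.83 ± 0.14 (3.56-fold, adjusted p = 1.01e-07) and OFF6 exceeded CTL by 2.19 ± 0.14 (4.58-fold, adjusted p = 2.44e-08). The day 3 difference from TUM was -0.04 ± 0.14, with a 95% interval of -0.35 to 0.27. At day 6 the difference from TUM was 0.36 ± 0.14 (adjusted p = 0.0724); OFF6 replicate 2, at 11.07, was the low array, and without it Itga7 rose by 0.56 (adjusted p = 0.000917). Itga6, a laminin receptor of many tissues that pairs with Itgb1 or Itgb4, read 9.02, 9.23 and 9.10 in CTL, 9.76, 9.82 and 9.75 in TUM, 9.73, 9.57 and 9.48 in OFF3 and 9.21, 9.56 and 9.29 in OFF6. It was higher in TUM than CTL (0.66 ± 0.10, adjusted p = 4.58e-05) and fell by day 6 (-0.42 ± 0.10, adjusted p = 0.00451), while the day 3 difference of -0.18 ± 0.10 did not pass (adjusted p = 0.2).

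The collagen-binding alpha chains rose after withdrawal in 3 of 4 cases at day 3, where 13.4% of all genes rose and 16.0% fell. Itga11, a receptor for fibrillar collagen known from fibroblasts, changed most. Its arrays read 8.11, 8.31 and 8.34 in CTL, 7.05, 7.15 and 7.09 in TUM, 9.12, 9.04 and 8.93 in OFF3 and 8.54, 8.72 and 8.34 in OFF6. The TUM arrays were the lowest and the OFF3 arrays the highest, with no overlap between TUM, OFF3 and OFF6. Itga11 was lower in TUM than CTL (-1.16 ± 0.10, 2.23-fold, adjusted p = 2.2e-07), rose 3.83-fold by day 3 (1.94 ± 0.10, adjusted p = 5.16e-08) and stood 2.71-fold above TUM at day 6 (1.44 ± 0.10, adjusted p = 3.41e-07).

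Itga1, a collagen and laminin receptor of vessel wall and stromal cells, read 8.55, 8.75 and 8.67 in CTL, 7.60, 7.74 and 7.75 in TUM, 8.39, 8.37 and 8.23 in OFF3 and 7.87, 8.35 and 7.86 in OFF6. It was lower in TUM than CTL (-0.96 ± 0.12, adjusted p = 9.01e-06) and rose by day 3 (0.64 ± 0.12, adjusted p = 0.00123). The day 6 call (0.33 ± 0.12, adjusted p = 0.0477) did not hold without OFF6 replicate 2, the high array of its group (0.17, adjusted p = 0.126), nor without any single CTL, TUM or OFF3 array (0.0504 to 0.161). Itga10, a collagen receptor best known from cartilage, rose at day 3 (0.37 ± 0.09) and read at the TUM level again at day 6 (difference 0.00 ± 0.09). Its arrays all lay between 6.17 and 6.77. Itga2, the collagen receptor of platelets and epithelia, differed from TUM by -0.13 ± 0.09 at day 3 and -0.22 ± 0.09 at day 6, and neither passed, though the day 6 fall passed without OFF6 replicate 2 (-0.30, adjusted p = 0.0184).

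Most fibroblast, endothelial and pericyte markers moved in the same direction as Itga11 and Itga1. Against it, Col1a1 (10.73 in CTL, 12.21 in TUM) and Pdgfrb (9.79 in CTL, 10.82 in TUM) were higher in TUM. Cspg4 fell by day 3 (7.97 in TUM, 7.45 in OFF3). Of 5 fibroblast markers 4 were lower in TUM than CTL and 5 rose by day 3, and their summed intensity ran from 10173 to 10697 in CTL, 7679 to 7897 in TUM, 15483 to 16915 in OFF3 and 11105 to 16822 in OFF6. Of 6 endothelial markers 6 were lower in TUM and 6 rose by day 3, with sums of 4364 to 4478 in CTL, 2270 to 2355 in TUM, 3365 to 3562 in OFF3 and 2559 to 3074 in OFF6. Of 6 pericyte and smooth muscle markers 5 were lower in TUM, and 5 rose and 1 fell by day 3, with sums of 8589 to 8801, 3185 to 3325, 5167 to 5359 and 4411 to 4871 in the same order. No marker in any list here was at 0, since the deposited intensities do not reach 0. The part of these cells in the integrin and laminin values was not tested.

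The alpha chains that bind the RGD motif of fibronectin and vitronectin differed among themselves. Itga5, whose integrin with Itgb1 is the main fibronectin receptor, read 7.95, 8.09 and 8.19 in CTL, 10.47, 10.51 and 10.56 in TUM, 10.60, 10.51 and 10.23 in OFF3 and 10.60, 10.20 and 10.54 in OFF6. The tumour arrays of all 3 times overlapped each other and lay over 2 log2 units above every control array. Itga5 was 5.41-fold higher in TUM than CTL (2.44 ± 0.12, adjusted p = 8.47e-10). Its difference from TUM was -0.07 ± 0.12 at day 3 (95% interval -0.32 to 0.18) and -0.07 ± 0.12 at day 6 (95% interval -0.32 to 0.18), the latter 0.05 without OFF6 replicate 2 (adjusted p = 0.724).

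Itgav, the alpha chain of the vitronectin receptors and of integrins that activate TGF-beta, was higher in TUM than CTL (0.93 ± 0.13, adjusted p = 2.57e-05). Its means were 10.39 ± 0.01 in CTL, 11.32 ± 0.05 in TUM, 10.89 ± 0.19 in OFF3 and 11.03 ± 0.30 in OFF6 (SD, n = 3), and OFF6 replicate 2 read 10.68, as low as the lowest OFF3 array. It fell by day 3 (-0.43 ± 0.13, adjusted p = 0.0231), a call lost without OFF3 replicate 3 (-0.32, adjusted p = 0.103) or without any 1 of the TUM arrays (adjusted p from 0.0509 to 0.0728), and the day 6 difference of -0.30 ± 0.13 did not pass (adjusted p = 0.102) and was -0.12 without OFF6 replicate 2 (adjusted p = 0.332). Itga8, a receptor of smooth muscle and fibroblasts whose ligand is nephronectin, read 6.14, 6.43 and 6.24 in CTL, 5.71, 5.78 and 5.56 in TUM, 6.70, 6.41 and 6.04 in OFF3 and 6.34, 6.57 and 6.19 in OFF6. The TUM arrays were the lowest and did not overlap any other group. Itga8 rose by 0.70 ± 0.15 at day 3 (adjusted p = 0.00333) and 0.68 ± 0.15 at day 6 (adjusted p = 0.00342). Itga2b, the platelet fibrinogen receptor chain, passed in 0 of the 5 limma comparisons, also at an unadjusted p under 0.05 (the difference furthest from 0 was 0.20 ± 0.10 for OFF6 minus CTL, adjusted p = 0.1), and array weights called 3 of them, the OFF6 comparisons (adjusted p from 0.00793 to 0.0379). The sums of 3 platelet markers were 428 to 457 in CTL, 479 to 513 in TUM, 439 to 458 in OFF3 and 275 to 510 in OFF6, and of these Ppbp and Gp9 were lower in TUM than CTL while Pf4 was not called.

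Itga4 and Itga9, relatives that bind the adhesion molecule Vcam1, fibronectin and tenascin, both rose after withdrawal. Itga4 read 9.32, 9.42 and 9.42 in CTL, 8.54, 8.53 and 8.38 in TUM, 9.50, 9.41 and 9.16 in OFF3 and 9.21, 9.58 and 9.12 in OFF6. Only its TUM arrays stood apart, below all others. It was lower in TUM than CTL (-0.90 ± 0.12, adjusted p = 1.54e-05) and rose by 0.87 ± 0.12 at day 3 (adjusted p = 0.00011) and 0.82 ± 0.12 at day 6 (adjusted p = 0.000162). Itga9 differed in being lowest in muscle: 8.44, 8.60 and 8.61 in CTL, 9.06, 9.33 and 9.15 in TUM, 9.77, 9.75 and 9.43 in OFF3 and 9.53, 9.68 and 9.40 in OFF6. It was higher in TUM than CTL (0.63 ± 0.11) and rose further at day 3 (0.47 ± 0.11, adjusted p = 0.00521) and day 6 (0.35 ± 0.11, adjusted p = 0.0233). The day 6 call was lost without OFF6 replicate 2 (0.28, adjusted p = 0.0707), OFF6 replicate 1 (0.36, 0.0554), TUM replicate 1 (0.29, 0.102) or TUM replicate 3 (0.34, 0.0733).

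**Figure D2:**
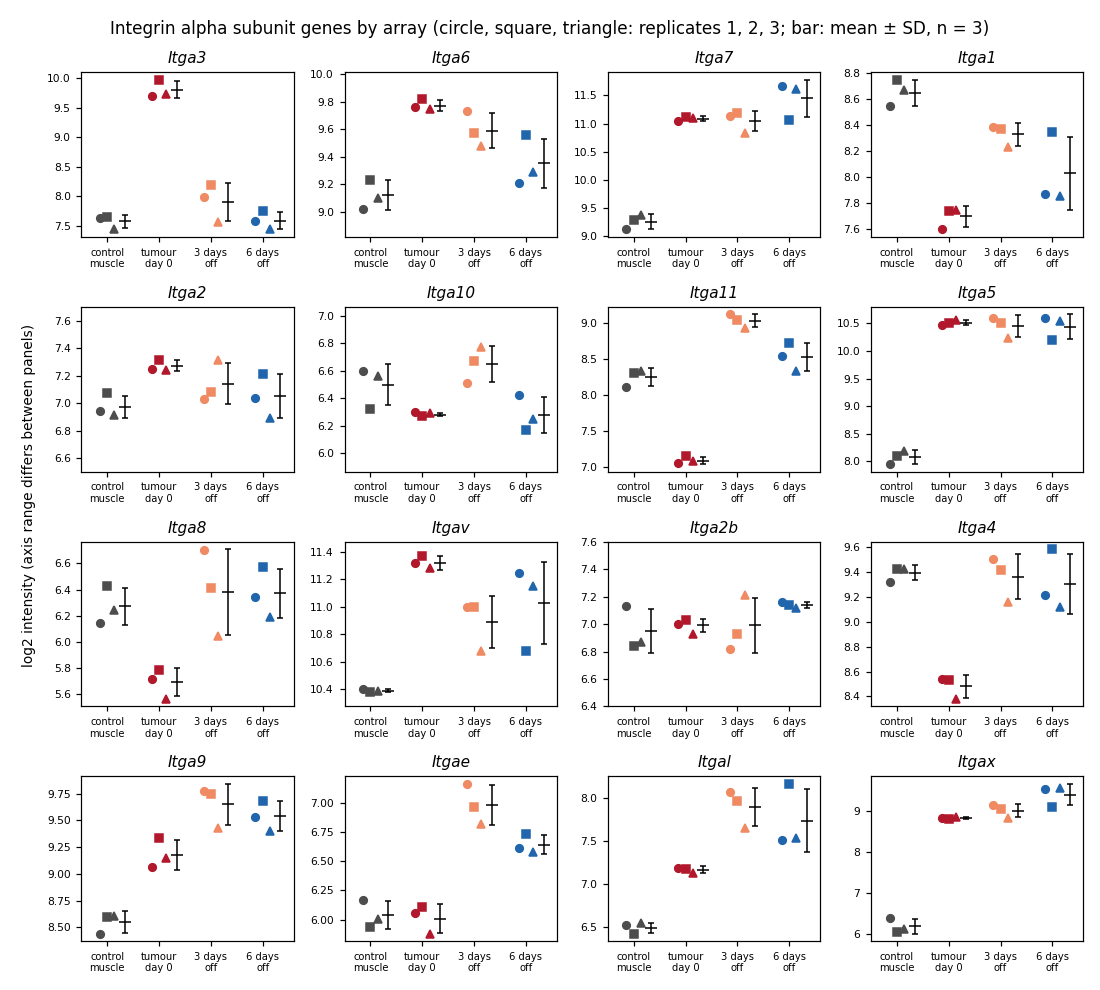
Log2 intensity (y axis, its range differing between panels) of the 16 integrin alpha genes in control muscle, day 0 tumours and tumours 3 and 6 days off doxycycline (x axis), with 1 symbol per array and the mean ± SD of 3 arrays as a bar. Itga5 and Itga7 stay high in all tumour groups, Itga3 drops to the level of control muscle by day 6, and Itga11, Itga4 and Itga8 are lowest in day 0 tumours.

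Of the leukocyte alpha chains, the selection by symbol took Itgax, Itgal and Itgae only, and any others are not described here. These 3 stood above their day 0 tumour level at day 6, and Itgal and Itgae also at day 3. Itgax, carried by macrophages and dendritic cells, read 6.38, 6.04 and 6.12 in CTL, 8.83, 8.80 and 8.85 in TUM, 9.14, 9.04 and 8.82 in OFF3 and 9.54, 9.09 and 9.56 in OFF6. Every tumour array exceeded every control array by more than 2 log2 units. It was 6.26-fold higher in TUM than CTL (2.65 ± 0.13, adjusted p = 1.01e-09), and 9.3-fold higher in OFF6 than CTL (3.22 ± 0.13, adjusted p = 2.99e-10), the largest difference of any of the 33 genes in the 5 comparisons. It rose from TUM by day 6 (0.57 ± 0.13, adjusted p = 0.00425) but did not pass at day 3 (0.17 ± 0.13).

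Itgal, the chain of the leukocyte receptor for Icam1, read 6.52, 6.42 and 6.54 in CTL, 7.19, 7.18 and 7.13 in TUM, 8.08, 7.97 and 7.65 in OFF3 and 7.52, 8.17 and 7.54 in OFF6. Each tumour group lay above muscle, and both groups off doxycycline lay above TUM. It rose by 0.73 ± 0.15 at day 3 (adjusted p = 0.00289) and 0.57 ± 0.15 at day 6 (adjusted p = 0.0117), and without OFF6 replicate 2, its highest array, the day 6 rise was 0.36 (adjusted p = 0.0163). Itgae, the chain with which lymphocytes and some dendritic cells bind E-cadherin, read 6.17, 5.94 and 6.01 in CTL, 6.06, 6.11 and 5.88 in TUM, 7.16, 6.96 and 6.82 in OFF3 and 6.61, 6.73 and 6.58 in OFF6. CTL and TUM overlapped (difference -0.02 ± 0.10, adjusted p = 0.834), and Itgae rose 1.96-fold by day 3 (0.97 ± 0.10, adjusted p = 1.08e-05) and 1.54-fold by day 6 (0.63 ± 0.10, adjusted p = 0.00031).

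Itgb2, the beta chain that pairs with Itgal and Itgax on leukocytes, read 7.19, 7.53 and 7.63 in CTL, 10.21, 10.23 and 10.21 in TUM, 10.08, 10.09 and 9.96 in OFF3 and 9.72, 10.30 and 9.70 in OFF6. It was 6.79-fold higher in TUM than CTL (2.76 ± 0.15, adjusted p = 2.4e-09). Its differences from TUM of -0.17 ± 0.15 at day 3 and -0.31 ± 0.15 at day 6 did not pass; without OFF6 replicate 2, the high array at day 6, Itgb2 fell (-0.50, adjusted p = 0.0026). Itgb7, the beta partner of Itga4 and Itgae on lymphocytes, was higher in TUM than CTL (0.62 ± 0.13, adjusted p = 0.000831). Its day 3 and day 6 differences from TUM (-0.20 ± 0.13 and -0.34 ± 0.13) did not pass. The day 6 difference was near the threshold (adjusted p = 0.0622) and passed as a fall in 8 alternative settings. Among them were leaving out OFF6 replicate 2 (-0.44, adjusted p = 0.022) and the replicate number as a block (adjusted p = 0.0358). Arrays centred on their median (0.0272) and only the 6 arrays compared (0.0261) were others.

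Macrophage markers were higher in tumour than muscle, as were Itgax, Itgal, Itgb2 and Itgb7 but not Itgae. All 8 (Cd68, Csf1r, Adgre1, Lyz2, Fcgr1, Mrc1, Cd14 and Aif1) were higher in TUM than CTL, and their summed intensity was 2913 to 3260 in CTL, 16046 to 16366 in TUM, 19793 to 20980 in OFF3 and 13312 to 19811 in OFF6. Of 7 lymphocyte and NK markers Cd4, Ncr1 and Nkg7 rose by day 3 and none fell under limma (4 rose and 0 fell at an unadjusted p under 0.05), and the sums were 363 to 398 in CTL, 764 to 825 in TUM, 1023 to 1533 in OFF3 and 1000 to 1542 in OFF6. NOD/SCID hosts lack mature T and B cells. In TUM compared with CTL, 3 of the 7 lymphocyte and NK markers were higher and 3 lower. The T and B cell markers Cd3e, Cd3g, Cd8a and Cd79a read 6.62 ± 0.09, 5.12 ± 0.18, 5.64 ± 0.10 and 4.89 ± 0.22 in CTL. They read 5.99 ± 0.06, 5.11 ± 0.05, 5.42 ± 0.17 and 4.45 ± 0.08 in TUM and 6.08 ± 0.11, 5.39 ± 0.03, 5.52 ± 0.12 and 4.43 ± 0.11 in OFF3. Cd3g rose by day 6 (0.35 ± 0.11, adjusted p = 0.0254). Cd4 was higher in TUM than CTL (2.27 ± 0.22) and read 8.50 ± 0.12 in TUM and 9.41 ± 0.51 in OFF3. The NK markers Ncr1 and Nkg7 read 6.10 ± 0.03 and 7.61 ± 0.08 in TUM and 7.08 ± 0.28 and 8.40 ± 0.26 in OFF3. The sums of 5 neutrophil markers were 226 to 269 in CTL, 277 to 289 in TUM, 463 to 518 in OFF3 and 373 to 524 in OFF6. Of the 5, Csf3r was higher and the other 4 lower in TUM than CTL, and 2 rose by day 3. The part of each cell type in the integrin values was not tested.

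Among the beta chains, Itgb1, the partner of most alpha chains, was higher in the tumours than in muscle and moved little after withdrawal. It read 10.65, 10.73 and 10.69 in CTL, 11.56, 11.48 and 11.54 in TUM, 11.68, 11.55 and 11.47 in OFF3 and 11.71, 11.47 and 11.73 in OFF6. TUM exceeded CTL by 0.84 ± 0.08 (1.79-fold, adjusted p = 6.8e-07). The difference from TUM was 0.04 ± 0.08 at day 3 (95% interval -0.13 to 0.21) and 0.11 ± 0.08 at day 6 (95% interval -0.06 to 0.28), and 0.20 without OFF6 replicate 2 (adjusted p = 0.0461).

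Itgb4, which pairs with Itga6 in the hemidesmosomes of epithelia and in Schwann cells, had the largest excess in day 0 tumours of the 33 genes. It read 8.07, 8.10 and 8.26 in CTL, 10.93, 11.07 and 10.86 in TUM, 9.81, 9.84 and 9.92 in OFF3 and 9.30, 9.53 and 9.27 in OFF6. The 4 groups did not overlap, and the order ran from TUM through OFF3 and OFF6 down to CTL. It was 7.03-fold higher in TUM than CTL (2.81 ± 0.09, adjusted p = 1.87e-11), fell 2.14-fold by day 3 (-1.10 ± 0.09, adjusted p = 1.24e-06) and stood 3.0-fold below TUM at day 6 (-1.59 ± 0.09, adjusted p = 6.59e-08). At day 6 it was still 2.34-fold above muscle (1.23 ± 0.09, adjusted p = 4.81e-08).

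The keratins Krt8 and Krt18 moved with Itgb4 and Itga3, while Epcam and Krt5 were low in every group. The summed intensity of the 5 epithelial markers was 471 to 508 in CTL, 4216 to 4682 in TUM, 1551 to 1613 in OFF3 and 984 to 1436 in OFF6. Of the 5, 2 were higher and 2 lower in TUM than CTL, and 3 fell by day 3. Krt8 read 7.57 ± 0.29 in CTL, 11.94 ± 0.08 in TUM and 10.27 ± 0.07 in OFF3, whereas Epcam read 5.17 ± 0.18, 4.90 ± 0.12 and 5.03 ± 0.05 and Krt5 5.75 ± 0.08, 5.36 ± 0.06 and 5.37 ± 0.14. The sums of 4 Schwann cell markers were 462 to 563 in CTL, 425 to 456 in TUM, 548 to 633 in OFF3 and 521 to 658 in OFF6. Of the 4, 1 was higher and 3 lower in TUM than CTL, and 1 rose by day 3. Of 7 osteoclast markers, 6 were higher in TUM than CTL and 7 lower at day 3. Their sums were 627 to 675 in CTL, 6072 to 6334 in TUM, 2225 to 2331 in OFF3 and 1934 to 2527 in OFF6. The osteoclast list was chosen with earlier results of these data known, so its fall is not a separate result beside those of Itgb4 and Itga3. The part of osteoclast-like or epithelial cells in the falls of Itgb4 and Itga3 was not tested.

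Itgb6 showed the opposite course. Its protein pairs only with that of Itgav and activates latent TGF-beta. Itgb6 read 10.40, 10.47 and 10.47 in CTL, 8.78, 8.76 and 8.79 in TUM, 9.38, 9.26 and 9.60 in OFF3 and 10.41, 9.81 and 10.39 in OFF6. The TUM arrays were the lowest, the OFF3 arrays came next, OFF6 replicate 2 lay above those, and OFF6 replicates 1 and 3 read close to the lowest control array. It was 3.19-fold lower in TUM than CTL (-1.67 ± 0.13, adjusted p = 1.47e-07), rose 1.55-fold by day 3 (0.64 ± 0.13, adjusted p = 0.00314) and 2.69-fold by day 6 (1.43 ± 0.13, adjusted p = 4.88e-06; 1.62 without OFF6 replicate 2). The summed skeletal muscle markers given above were likewise lowest in TUM, and the part of muscle fibres in the Itgb6 values was not tested.

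Itgb8, another partner of Itgav that activates TGF-beta, read 6.45, 6.49 and 6.22 in CTL, 6.60, 6.64 and 6.59 in TUM, 7.44, 7.50 and 7.93 in OFF3 and 7.05, 7.86 and 7.22 in OFF6. Both groups off doxycycline lay above muscle and day 0 tumours, and OFF6 replicate 2 was the highest array of its group. It rose 2.02-fold by day 3 (1.02 ± 0.18, adjusted p = 0.00096) and 1.7-fold by day 6 (0.76 ± 0.18, adjusted p = 0.00596), or 0.52 without OFF6 replicate 2 (adjusted p = 0.00781). Itgb5, the vitronectin-binding partner of Itgav, read 10.86 ± 0.09 in CTL, 11.50 ± 0.04 in TUM, 11.76 ± 0.12 in OFF3 and 11.54 ± 0.08 in OFF6 (SD, n = 3). It was higher in TUM than CTL (0.65 ± 0.08, adjusted p = 5.4e-06). The day 3 rise (0.25 ± 0.08, adjusted p = 0.0228) was lost without TUM replicate 1 or 3 or OFF3 replicate 1 or 2 (adjusted p from 0.0681 to 0.089), and the day 6 difference was 0.04 ± 0.08. Of Itgav's partners measured here, Itgb6 and Itgb8 passed as rises at both times while Itgav itself passed as a fall at day 3.

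**Figure D3:**
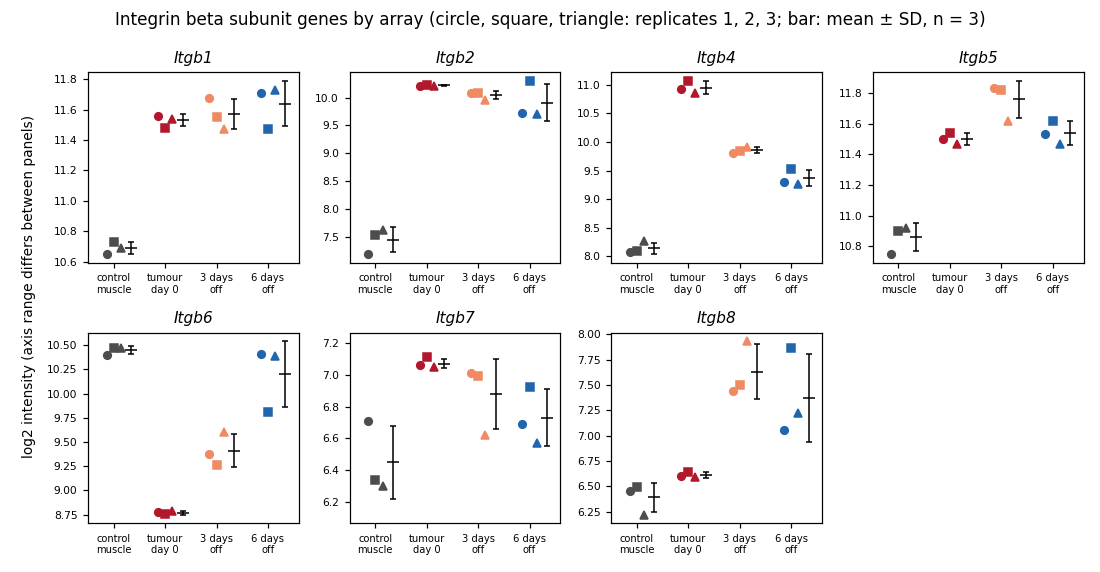
Log2 intensity (y axis, its range differing between panels) of the 7 integrin beta genes by group (x axis), with 1 symbol per array and the mean ± SD of 3 arrays as a bar. Itgb4 steps down from 10.95 ± 0.11 in TUM to 9.37 ± 0.14 in OFF6, Itgb6 climbs from 8.77 ± 0.02 to 10.20 ± 0.34, and Itgb1 stays between 11.47 and 11.73 on every tumour array.

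The laminin alpha chain genes Lama2 and Lama4 rose after withdrawal. Lama2, the alpha chain of the muscle fibre sheath whose loss causes a congenital muscular dystrophy, read 9.80, 9.92 and 9.90 in CTL, 9.62, 9.61 and 9.66 in TUM, 10.32, 10.30 and 10.36 in OFF3 and 10.57, 10.41 and 10.50 in OFF6. Its TUM arrays were the lowest, and both groups off doxycycline lay above muscle as well. It rose by 0.70 ± 0.06 at day 3 (1.62-fold, adjusted p = 3.2e-06) and 0.87 ± 0.06 at day 6 (1.82-fold, adjusted p = 4.35e-07), and OFF6 exceeded CTL by 0.62 ± 0.06 (adjusted p = 1.25e-06).

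Lama4, the alpha chain of vessel walls and of the nerve-muscle junction, read 8.92, 9.16 and 8.99 in CTL, 8.69, 8.67 and 8.68 in TUM, 9.92, 9.78 and 9.88 in OFF3 and 9.48, 9.94 and 9.50 in OFF6. It rose most of the laminins at day 3, 2.26-fold (1.18 ± 0.11, adjusted p = 5.86e-06), and stood 1.95-fold above TUM at day 6 (0.96 ± 0.11, adjusted p = 2.51e-05). Without OFF6 replicate 2, its highest array, the day 6 rise of Lama4 was 0.81 and that of Lama2, at 0.91, was larger. Its lower level in TUM than CTL (-0.34 ± 0.11, adjusted p = 0.0128) missed the threshold without CTL replicate 2 (-0.28, adjusted p = 0.0562). Lama1, the alpha chain of the early embryo, rose by 0.33 ± 0.06 at day 3 and 0.43 ± 0.06 at day 6, but between group means of only 5.82 ± 0.05 and 6.24 ± 0.06 (SD, n = 3). Lama1 was called lower in TUM than CTL (-0.20 ± 0.06), a direction that turned with quantile normalisation (0.02, adjusted p = 0.854).

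Lama3, Lama5 and the beta chain Lamb3 belong to laminins known mainly from epithelia, Lama5 also from vessels. Lamb3 read 6.76, 6.89 and 6.75 in CTL, 7.29, 7.41 and 7.36 in TUM, 6.71, 6.75 and 6.79 in OFF3 and 6.78, 6.57 and 6.64 in OFF6. Its TUM arrays stood above all others, and it fell at day 3 (-0.60 ± 0.07, adjusted p = 3.03e-05) and day 6 (-0.69 ± 0.07, adjusted p = 8e-06) after an excess of 0.56 ± 0.07 over muscle. Lama5 was higher in TUM than CTL (0.52 ± 0.09) and fell at day 3 (-0.28 ± 0.09, adjusted p = 0.035) and day 6 (-0.33 ± 0.09, adjusted p = 0.0134). The excess over CTL missed the threshold with quantile normalisation (0.21, adjusted p = 0.065), and the day 3 fall with quantile normalisation (-0.23, 0.085), with a replicate block (adjusted p = 0.0569), without any 1 TUM array (adjusted p from 0.0583 to 0.104) or without OFF3 replicate 3 (0.141). Without OFF6 replicate 2 the day 6 fall was -0.22 (adjusted p = 0.0333). Lama3 went the other way: it was lower in TUM than CTL (-0.62 ± 0.07, adjusted p = 2.26e-06) and rose at day 3 (0.25 ± 0.07, adjusted p = 0.0111), which did not pass without TUM replicate 3 (0.20, adjusted p = 0.0615), with a day 6 difference of 0.09 ± 0.07.

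The beta chains Lamb1 and Lamb2, which are found in different muscle basement membranes, Lamb2 being the one of the nerve-muscle junction, stood in opposite order between muscle and tumour. Lamb1 read 8.21, 8.49 and 8.47 in CTL, 9.99, 10.06 and 9.99 in TUM, 10.32, 10.29 and 10.20 in OFF3 and 9.92, 9.96 and 9.87 in OFF6, and was 3.08-fold higher in TUM than CTL (1.62 ± 0.08, adjusted p = 7.7e-10). Lamb2 read 10.93, 10.85 and 10.76 in CTL, 9.69, 9.73 and 9.64 in TUM, 9.78, 9.98 and 10.04 in OFF3 and 10.27, 10.04 and 10.11 in OFF6, and was 2.23-fold lower in TUM than CTL (-1.16 ± 0.08, adjusted p = 4.41e-08). No tumour array of either gene overlapped the muscle arrays. After withdrawal Lamb2 rose by 0.46 ± 0.08 at day 6 (adjusted p = 0.000933), and OFF6 was still lower than CTL (-0.70 ± 0.08). Its day 3 rise (0.24 ± 0.08, adjusted p = 0.0418) was lost with arrays centred on their median (0.0911), with a replicate block (0.073) and without any 1 of 7 arrays, among them each TUM array (adjusted p up to 0.154). Lamb1 was 0.26 ± 0.08 above TUM at day 3 (adjusted p = 0.0227), which did not pass without TUM replicate 1 or 3 or OFF3 replicate 1 or 2 (0.0669 to 0.0774), and differed by -0.10 ± 0.08 at day 6.

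Lamc1, the gamma chain shared by most laminins, varied little. It read 10.07, 10.14 and 10.26 in CTL, 10.31, 10.31 and 10.36 in TUM, 10.52, 10.47 and 10.55 in OFF3 and 10.67, 10.57 and 10.56 in OFF6. The group means climbed from CTL to OFF6, and OFF6 exceeded CTL by 0.45 ± 0.06 (1.36-fold, adjusted p = 4.75e-05) and TUM by 0.28 ± 0.06 (adjusted p = 0.00502). Its smaller differences for TUM minus CTL (0.17 ± 0.06) and OFF3 minus TUM (0.19 ± 0.06, adjusted p = 0.0431) missed the threshold with arrays centred on their median (0.03 and 0.15, adjusted p = 0.688 and 0.131). The first also missed it with quantile normalisation (0.13, adjusted p = 0.0718) and without CTL replicate 1 or 2 or TUM replicate 1 or 3 (0.0553 to 0.105), and the second with a replicate block (0.0642) and without any 1 of 8 arrays. Lamc3, a gamma chain of nervous tissue and skin, was lower in TUM than CTL (-0.46 ± 0.10, adjusted p = 0.000834) and differed from TUM by 0.01 ± 0.10 at day 3 and 0.19 ± 0.10 at day 6, with a day 6 call only under array weights (0.20) and without OFF6 replicate 2 (0.27, adjusted p = 0.0414).

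**Figure D4:**
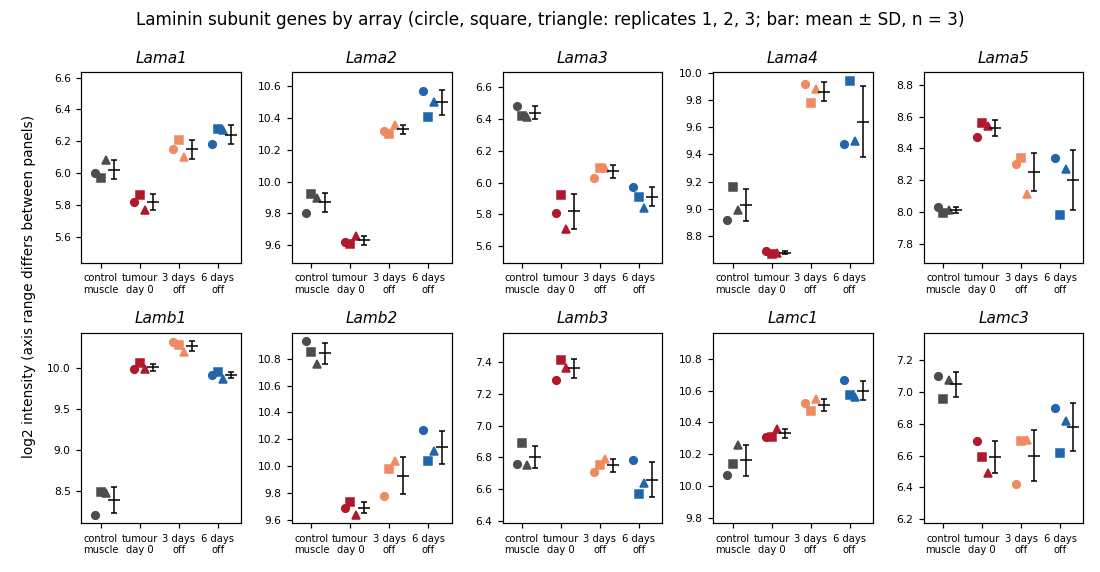
Log2 intensity (y axis, its range differing between panels) of the 10 laminin genes by group (x axis), with 1 symbol per array and the mean ± SD of 3 arrays as a bar. Lama2 and Lama4 are lowest in day 0 tumours, Lamb3 is highest there, and Lamb1 and Lamb2 lie on opposite sides of control muscle in every tumour group.

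Between day 3 and day 6, 1 of the 33 genes rose and 5 fell, where 6.05% of all genes rose and 4.38% fell. Itgb6 rose (0.79 ± 0.13, adjusted p = 0.00516), and Itga11 (-0.50 ± 0.10), Itgb4 (-0.49 ± 0.09), Itga10 (-0.37 ± 0.09), Lamb1 (-0.35 ± 0.08) and Itgae (-0.34 ± 0.10, adjusted p = 0.0443) fell. The call was lost in 10 alternative settings for Itgae, 5 for Lamb1 and 4 for Itga10. For each of these genes they included fits without a single OFF3 array, or without an OFF6 array other than replicate 2. The counts also depended on OFF6 replicate 2: without it 6 of the 33 genes rose and 12 fell, and the shares of all genes in that fit are not given here. The added rises were Itga7 (0.59), Itgax (0.55), Itgav (0.30), Lama2 (0.21) and Lamb2 (0.26). The added falls were Itgb8 (-0.50), Itga1 (-0.47), Lama4 (-0.37), Itgal (-0.37), Itga6 (-0.35), Itgb2 (-0.33) and Itgb5 (-0.26). In a limma model of only the 6 arrays compared, 0 of the 33 passed in either direction (3 higher and 7 lower at an unadjusted p under 0.05). None of the 33 was called with a difference of at least 1, which 0.542% of all genes were, and the arrays did not overlap for 10 of the 33 genes and 21.2% of all genes.

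In tumours 6 days off doxycycline, 23 of the 33 genes were called different from control muscle, as were 12790 of all 19937 genes. Of the 33 genes 19 were higher in OFF6 than CTL and 4 lower, where 28.1% of all genes were higher and 36.1% lower. With arrays centred on their median the counts were 16 and 8. Of all genes 4486 were then higher and 12001 lower, against 5602 and 7188 without centring. The arrays did not overlap for 21 of the 33 genes and 68.5% of all genes. Beside Itgax, Itgb2 (2.46 ± 0.15), Itga5 (2.37 ± 0.12), Itga7 (2.19 ± 0.14), Lamb1 (1.53 ± 0.08), Itgal (1.25 ± 0.15) and Itgb4 (1.23 ± 0.09) were higher by at least 1 log2 unit (7 of the 33, against 17.2% of all genes past this size in either direction), and the lower ones were Lamb2 (-0.70 ± 0.08), Itga1 (-0.63 ± 0.12), Lama3 (-0.53 ± 0.07) and Lamc3 (-0.27 ± 0.10). Itga6 (0.24 ± 0.10, adjusted p = 0.0471) and Itga11 (0.28 ± 0.10, adjusted p = 0.0226), called higher, lost the call without OFF6 replicate 2 (0.13 and 0.19, adjusted p = 0.19 and 0.089), as did Lamc3 (-0.19, 0.0981), called lower, while Lama5 was then called higher (0.29, 0.00469).

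The partners of these subunits were described by 5 lists drawn from textbook knowledge, but chosen with earlier results of these data known. The counts of all 5 lists stand beside these shares of all genes. In TUM minus CTL 30.3% were higher and 45.9% lower (median -0.15), and at day 3 13.4% rose and 16.0% fell. Of 12 basement membrane genes other than laminins, 5 were higher and 5 lower in TUM than CTL, and 4 rose and 1 fell at day 3 (median 0.06, against 0.02 over all genes). Nid2, a linker between laminin and type IV collagen, was higher in TUM (2.89 ± 0.09) and fell at day 3 (-0.93 ± 0.09), Col18a1 was higher in TUM (2.37 ± 0.12), and Col15a1 was lower in TUM (-1.11 ± 0.13) and rose at day 3 (0.48 ± 0.13) together with Col4a1 (0.39 ± 0.07). Col4a3 (-0.52 ± 0.09) was the next furthest below muscle in TUM.

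Of 12 measured genes listed for the dystroglycan and dystrophin complex, the other laminin link of the fibre, 2 were higher and 8 lower in TUM than CTL (median -0.95), and 5 rose and 2 fell at day 3 (median 0.20). The list also holds Bcam, a laminin receptor outside that complex, which was among the lower ones (-0.92 ± 0.20). Dystrophin (Dmd, -3.56 ± 0.17) and Sgca (-2.56 ± 0.09), a sarcoglycan of striated muscle, were furthest below muscle in TUM and rose most at day 3 (0.80 ± 0.17 and 1.22 ± 0.09). The broadly expressed Sgce (1.53 ± 0.08) and the dystrophin relative Utrn (1.32 ± 0.08) were higher in TUM, and Sgce (-0.28 ± 0.08) and the glycosyltransferase Pomt1 (-0.54 ± 0.09) fell at day 3. Dag1, which encodes dystroglycan itself, differed by -0.15 ± 0.09 for TUM minus CTL and 0.05 ± 0.09 for OFF3 minus TUM, and neither passed.

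Inside the cell, 13 of 22 genes for integrin-linked proteins were higher and 6 lower in TUM than CTL (median 0.84), and 4 rose and 9 fell at day 3 (median -0.14). The kinase Ptk2b (3.18 ± 0.07) and the adaptor Tns3 (2.88 ± 0.11) were furthest above muscle, and the parvins Parva (-0.67 ± 0.09) and Parvb (-0.65 ± 0.15), which join integrins to actin, fell most at day 3. Itgb1bp2, the striated muscle protein melusin that binds the Itgb1 tail, was lower in TUM (-2.67 ± 0.09) and rose 3.62-fold at day 3 (1.86 ± 0.09), followed by Tns1 (0.91 ± 0.13). Lims2 was also low in TUM (-2.59 ± 0.11).

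Of 14 measured genes for other integrin ligands, 9 were higher and 4 lower in TUM than CTL (median 1.18), and 6 rose and 2 fell at day 3 (median 0.23). Vcam1 (3.78 ± 0.11), a ligand of the Itga4 and Itga9 integrins, and Thbs1 (3.13 ± 0.11) were furthest above muscle, and Vtn (-2.22 ± 0.16) and Icam2 (-0.91 ± 0.11) furthest below. Ccn3 (2.18 ± 0.09) and Tnc (1.66 ± 0.15), a ligand of Itga9, rose most at day 3, and Ccn1 (-1.48 ± 0.07) and Thbs1 (-0.98 ± 0.11) fell. Of 10 membrane proteins that associate with integrins, 9 were higher and 1 lower in TUM than CTL (median 0.83), and 1 rose and 4 fell at day 3 (median -0.09). Plaur, the urokinase receptor, was highest above muscle (2.89 ± 0.12) before Cd82 (2.36 ± 0.09) and fell most at day 3 (-1.75 ± 0.12), with Cd151 (-0.44 ± 0.06), a partner of the Itga3 integrin, also falling. Cd9 rose (0.70 ± 0.11), and Bsg was lower in TUM than CTL (-0.37 ± 0.06).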

How the data were processed

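The authors deposited linear intensity for each probe set, made with RMA per the submitters' processing notes. Its version is not given in the sources used here, and the values carry no detection call. Of 34760 probe sets, 21640 had 1 gene symbol, 1321 several and 11799 none. The first kind was used, with the highest-mean probe set per gene (954 genes had several), which left 19937 genes. Log2 was taken with no filter on low values. All 33 members read at least log2 6 on 3 or more arrays, 29 of them on all 12.

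One mean per group was fitted to the 12 arrays with limma 3.58.1 in R 4.3.3, two-sided, with 12.2 degrees of freedom and a median standard error of 0.0863. Array number limits the precision. Genes were named by role, with all arrays shown for differences of at least 1 after withdrawal or 2 against muscle, for Itgb1, Itga7, Lama2 and Lamc1, and for further members after seeing values. Members and lists were chosen with earlier results of these data known. Same-numbered arrays did not pair: 3 of 18 correlations of their deviations passed 0.1 (-0.387 to 0.249). The procedure was tested on simulated data. Alternatives covered probe sets, low values, scaling, variance, weights, block, model, threshold and single arrays. Figures used Python 3.11.15, pandas 2.3.3 and matplotlib 3.10.9.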

Additional observations from a re-analysis of the deposited data

How the results depend on the processing

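Of 3630 refitted or rethresholded differences of the 33 members, 1 turned a called direction (Lama1, TUM minus CTL, 0.02 with quantile normalisation), and 55 that passed in neither fit had the other sign. Many of the 3630 could not turn, since thresholds, probe-set mean, low-value filter, variance, block and the 6-array model leave a member's difference unchanged. Leaving out an array of a group outside the comparison leaves it unchanged too. The count of turned directions is therefore no measure of stability over all settings. Requiring a difference of at least 1 left 7 members higher and 3 lower for TUM minus CTL, 3 and 2 for OFF3 minus TUM, 2 and 2 for OFF6 minus TUM, 0 and 0 for OFF6 minus OFF3, and 7 and 0 for OFF6 minus CTL. An adjusted p under 0.01 left 3 lower for OFF3 minus TUM and 2 lower for OFF6 minus OFF3. Array weights gave 9 lower for OFF6 minus TUM, where 4887 of all genes were lower, against 3317 in the main fit. For OFF6 minus OFF3 they gave 10 higher and 17 lower. Of all genes 4120 were then higher and 4304 lower, against 1206 and 874 in the main fit. Only the 6 arrays compared gave 0 and 0 for OFF6 minus OFF3. Arrays centred on their median gave 8 lower for OFF6 minus CTL, where 12001 of all genes were lower, against 7188 in the main fit. The cause was not tested. Leaving out 1 array at a time, members higher and lower ranged from 17 to 18 and 11 to 12 for TUM minus CTL, 13 to 18 and 3 to 5 for OFF3 minus TUM, 13 to 16 and 5 to 8 for OFF6 minus TUM, 1 to 6 and 2 to 12 for OFF6 minus OFF3, and 18 to 21 and 3 to 6 for OFF6 minus CTL. The extremes of 6 and 12 for OFF6 minus OFF3 came without OFF6 replicate 2, and the 3 lower for OFF3 minus TUM without any 1 TUM array or OFF3 replicate 3.

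With the replicate block, members higher and lower were 18 and 11 for TUM minus CTL, 16 and 4 for OFF3 minus TUM, 15 and 6 for OFF6 minus TUM, 1 and 5 for OFF6 minus OFF3, and 20 and 4 for OFF6 minus CTL, but the numbers do not pair the arrays. The shares of all genes with the block, with 1 array left out, with only the 6 arrays compared and at an adjusted p under 0.01 are not given here. Changes of the member counts in those settings therefore cannot be set against changes over all genes. Of 1100 counts in the 5 partner lists, 145 moved by over 1.5 times. Low signal limits Lama1, Lama3, Itga8 and Itgae, which read under log2 6 on some arrays.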
